A study of Rattus norvegicus with 20 samples.

Results

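The transcripts of the 5 dopamine receptors (*Drd1* to *Drd5*) and of DARPP-32 (*Ppp1r1b*) were followed in the mPFC (medial prefrontal cortex) of LSD-treated and control rats. The 6 genes were chosen by symbol from the 31038 genes of the deposited count matrix, and 5 of them, all but *Drd3*, reached 5 reads in 10 or more samples, as did 16605 genes in all. The data are reads counted per gene in bulk tissue from 20 male Sprague-Dawley rats, with 1 poly(A)-selected library per rat. The 10 rats of the LSD group received 0.16 mg/kg of the drug by i.p. injection on alternate days over 90 days, and the 10 rats of the Saline group (controls) received sterile saline on the same schedule. All rats were 6 to 8 weeks old at the start according to the sample labels, were housed singly, and had a drug-free period before dissection that the series text puts at 3 weeks. The study's methods give a higher age and a longer interval, without a difference between the groups. The tissue came from 1 hemisphere of frozen brain, so a library holds every cell type within the dissected block.

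Dopamine acts through receptors that couple to G proteins and fall into a pair of classes. The D1-like receptors, encoded by *Drd1* and *Drd5*, couple to Gs and Golf and raise cAMP, and the D2-like receptors, encoded by *Drd2*, *Drd3* and *Drd4*, couple to Gi and Go and lower it. DARPP-32 sits downstream of both: phosphorylated by protein kinase A it inhibits protein phosphatase 1, and phosphorylated by Cdk5 it inhibits protein kinase A. In the striatum *Drd1* and *Drd2* mark the direct and the indirect pathway projection neurons, which also hold large amounts of DARPP-32, whereas in the cortex these transcripts are found mostly in subsets of deep-layer pyramidal neurons and interneurons.

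RefSeq promoter windows (250 bases before to 50 bases after a gene's start, GRCr8 build) were at hand for the 5 receptors. For *Drd1* the window does not start at the outer end of the annotated gene: it lies wholly inside the gene's span, downstream of its first base, whereas the windows of the other 4 receptors fit the gene's first base. What is said of the *Drd1* letters holds for that internal window only. Those of *Drd1*, *Drd2* and *Drd4* are printed. Across rats, the levels of *Drd1* and *Drd2* were correlated by Pearson's r but not by Spearman's rho (adjusted p = 0.0351 and 0.178, permutation tests). For *Drd4* no such correlation passed a test. A link between the letters and these levels was not tested. Capitals mark GC boxes, the letters GGGCGG on either strand.
*Drd1* (chr17:10546354-10546653, + strand): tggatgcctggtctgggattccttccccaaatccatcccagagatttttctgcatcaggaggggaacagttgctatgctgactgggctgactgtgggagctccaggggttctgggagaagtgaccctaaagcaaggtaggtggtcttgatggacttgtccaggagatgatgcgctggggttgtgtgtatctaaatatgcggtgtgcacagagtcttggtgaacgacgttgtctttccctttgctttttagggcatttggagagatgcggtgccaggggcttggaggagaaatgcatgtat
*Drd2* (chr8:58605153-58605452, + strand): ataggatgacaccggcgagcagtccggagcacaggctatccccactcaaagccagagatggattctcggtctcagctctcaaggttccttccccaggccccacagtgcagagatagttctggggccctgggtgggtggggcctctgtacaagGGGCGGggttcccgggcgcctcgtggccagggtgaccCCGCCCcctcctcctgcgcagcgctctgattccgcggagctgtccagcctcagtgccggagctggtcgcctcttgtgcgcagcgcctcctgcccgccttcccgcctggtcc
*Drd4* (chr1:205825687-205825986, + strand): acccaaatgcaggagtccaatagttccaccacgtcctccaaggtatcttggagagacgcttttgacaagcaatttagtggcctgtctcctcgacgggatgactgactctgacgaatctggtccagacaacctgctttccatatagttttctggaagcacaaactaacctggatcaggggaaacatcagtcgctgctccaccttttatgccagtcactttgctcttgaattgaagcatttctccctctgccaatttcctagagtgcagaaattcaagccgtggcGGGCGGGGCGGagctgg

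The windows of *Drd1* and *Drd3* held no GC box, and those of *Drd2*, *Drd4* and *Drd5* held 2 each, which overlap each other in *Drd4*. Of all 33469 rat windows of this length, 33.1% held at least 1. The letters CCAAT occurred 2 times in the *Drd4* window and in no other receptor window, against 37.5% of all windows, and TGACG, the half-site of a cAMP response element, was found once in *Drd4* and not in the other receptor windows, against 21.2% of all windows. No receptor window held TATAAA (14.2% of all) or CACGTG (6.42% of all). GC content was 51.7% in *Drd1*, 67.3% in *Drd2*, 39.3% in *Drd3*, 50.3% in *Drd4* and 67.0% in *Drd5*, around a median of 51.7% for all windows.

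Each rat's library held 11098076 to 25552681 reads assigned to genes, with medians of 20271086 in the LSD group and 16815424 in the controls. Levels are given as RPM, reads scaled to the library's total on genes after TMM normalisation, and since no transcript lengths of the annotation were used, they are compared between rats and not between genes. The cortical excitatory neuron markers *Slc17a7* and *Camk2a* stood at 1852 ± 220 and 1801 ± 196 RPM (SD, n = 10) in the LSD group, and at 2091 ± 309 and 1761 ± 268 RPM (SD, n = 10) in the controls. In 4 libraries, LSD 9 and Saline 2, 8 and 9, the summed level of 14 marker genes of striatal projection neurons lay between 419 and 625 RPM, whereas it lay between 241 and 319 RPM in the other 16. These 4 were picked as the highest in this sum, so high levels of its markers follow in part from the selection. Of the 14 markers, 10 were higher in each of these 4 libraries than in any other. *Adora2a*, the adenosine receptor of indirect pathway neurons, had 28.7 to 44.6 RPM in the 4 libraries and 5.34 to 13.7 RPM in the remainder, and the striatal transcription factor gene *Six3* had 1.31 to 2.97 RPM against 0 to 0.438 RPM. *Ido1* was at or near 0 in all libraries. The same 4 libraries had the highest sums of 5 oligodendrocyte markers, 4832 to 6302 RPM against 1885 to 4514 RPM in the other 16. Their sums of 5 upper layer markers were 267 to 319 RPM against 307 to 391.7 RPM, and of 5 layer 5 markers 324 to 399.6 RPM against 290 to 352 RPM, with overlap in both. Of the 4 libraries, 3 belong to the controls and 1 to the LSD group, so the comparisons of the 6 genes are given with and without them, and for other genes it is said where a call made over all rats was lost without them. Their selection was made after the data were seen and used none of the 6 genes.

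**Figure D1:**
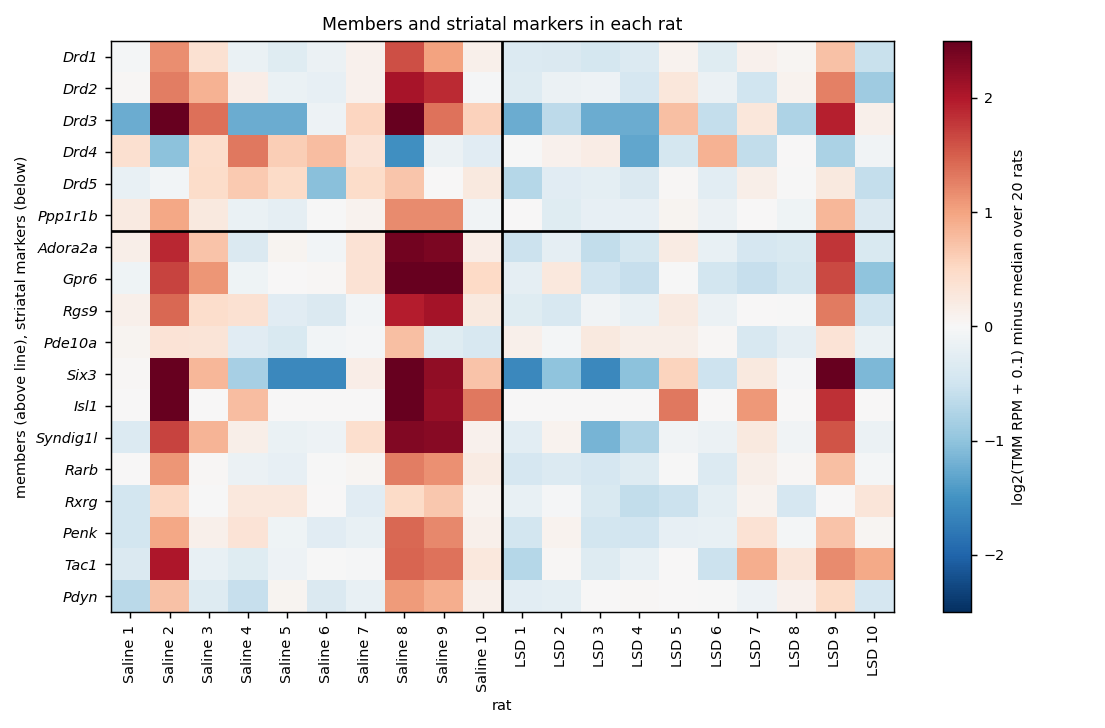
Levels of the 6 genes (above the line) and of 12 striatal markers (below it) in each of the 20 rats, as log2(TMM RPM + 0.1) minus the gene's median over all rats. Columns Saline 2, Saline 8, Saline 9 and LSD 9 are red in *Drd1*, *Drd2*, *Drd3* and *Ppp1r1b* and in most striatal markers, and not in *Drd4*. *Ido1*, with 1 read in all libraries together, is not drawn.

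None of the 6 genes passed the threshold between LSD-treated rats and controls (edgeR's quasi-likelihood test, Benjamini-Hochberg adjusted p under 0.05), although all 6 had a negative log2 fold change. At an unadjusted p under 0.05, 4 of the 5 genes past the filter were lower in LSD-treated rats, as were 16.4% of all genes tested, and DESeq2 called 0 of the 5 at an adjusted p under 0.05. By comparison, edgeR called 15.0% of all 16605 genes in either direction, 8.54% (1418 genes) as lower and 6.49% (1077 genes) as higher in LSD, and DESeq2 called 18.4%. With scaling by total counts the split turned to 858 lower and 1501 higher genes. In bulk tissue a lower level can come from fewer cells of a type or from less RNA per cell, and these cannot be told apart here.

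*Drd1* encodes the main D1-like receptor of the forebrain. It had 11.1, 13.01 and 27.0 RPM in the lowest, median and highest LSD-treated rat, and 13.1, 17.7 and 50.1 RPM in the controls. The ranges overlapped, but only 1 of 10 LSD-treated rats, LSD 9, exceeded the control median. The means were 15.4 ± 4.74 RPM (SD, n = 10) and 23.4 ± 12.3 RPM (SD, n = 10), from 142 to 920 reads per rat. The log2 fold change was -0.61 (standard error 0.23, 95% interval -1.08 to -0.15, adjusted p = 0.0678, edgeR). When the 4 libraries were left out, the means of the remaining 9 LSD-treated rats and 7 controls were 14.1 ± 2.54 RPM and 16.4 ± 2.71 RPM, and the log2 fold change was -0.22 (95% interval -0.46 to 0.02, adjusted p = 0.172, edgeR). Leaving out LSD 9 alone, the only LSD library of the 4, moved it the other way, to -0.74 (adjusted p = 0.0313, edgeR), past the threshold, in a fit that called 7.60% of all genes as lower.

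*Drd5*, the other D1-like receptor gene, was measured at a lower depth, with 10 to 39 reads per rat. LSD-treated rats had 0.759, 1.08 and 1.57 RPM (lowest, median and highest), and controls 0.585, 1.69 and 2.18 RPM. No LSD-treated rat was above the median of the controls, yet the lowest rat of all was a control, Saline 6. The means were 1.15 ± 0.265 RPM (SD, n = 10) and 1.56 ± 0.499 RPM (SD, n = 10), a log2 fold change of -0.42 (standard error 0.19, 95% interval -0.81 to -0.03, adjusted p = 0.127, edgeR). This difference changed little without the 4 libraries, at -0.47 (adjusted p = 0.111, edgeR). Without Saline 6 alone, *Drd5* passed the threshold at -0.52 (adjusted p = 0.0342, edgeR).

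*Drd2* encodes the D2 receptor, the target of most antipsychotic drugs. LSD-treated rats had 5.09, 8.59 and 23.1 RPM (lowest, median and highest) and controls had 8.20, 10.5 and 40.2 RPM. Again the groups overlapped, with 2 of 10 LSD-treated rats over the control median. The means were 9.71 ± 5.03 RPM (SD, n = 10) and 17.3 ± 11.8 RPM (SD, n = 10), from 92 to 718 reads per rat, and the log2 fold change was -0.84 (standard error 0.31, 95% interval -1.49 to -0.20, adjusted p = 0.0694, edgeR). In the other 16 libraries it was -0.37 (95% interval -0.71 to -0.02, adjusted p = 0.114, edgeR), with means of 8.22 ± 1.92 RPM in 9 LSD-treated rats and 10.6 ± 3.15 RPM in 7 controls. Leaving out LSD 9 alone gave -1.09 (adjusted p = 0.0213) and leaving out Saline 10 alone gave -0.92 (adjusted p = 0.0457, both edgeR), each past the threshold.

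*Drd3*, whose receptor is best known from the islands of Calleja and the ventral striatum, was near the limit of detection, with 0 to 38 reads per rat. It had no read in 6 libraries, 3 of each group, which allows up to 0.147 to 0.270 RPM in them (3 reads of the library's total, counting error only). Its highest levels were 1.51 RPM in Saline 2, 1.40 RPM in Saline 8 and 0.805 RPM in LSD 9, while Saline 9, with 0.503 RPM, lay just under Saline 3, with 0.511 RPM. Outside the 4 libraries no rat had more than 7 reads. In a fit without the filter on low counts, the log2 fold change was -1.51 (95% interval -2.90 to -0.12, adjusted p = 0.183, edgeR), and without the 4 libraries it was -0.80 (95% interval -2.29 to 0.69, adjusted p = 0.528, edgeR). Leaving out LSD 9 alone gave -2.33 (adjusted p = 0.0470, edgeR).

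*Drd4*, a D2-like receptor gene of the prefrontal cortex and other regions, departed from this pattern. It had 2 to 20 reads per rat, 0.148, 0.490 and 1.01 RPM in the lowest, median and highest LSD-treated rat, and 0.112, 0.688 and 1.42 RPM in the controls. The lowest level of all was in Saline 8, the rat with the highest *Drd1* and *Drd2*. The 4 libraries lay between 0.112 and 0.453 RPM (2 to 9 reads). The others lay between 0.148 and 1.42 RPM (3 to 20 reads), so the ranges overlapped at low counts. The log2 fold change was -0.41 over all rats (standard error 0.34, 95% interval -1.12 to 0.30, adjusted p = 0.449, edgeR). It was larger without the 4 libraries, at -0.71 (95% interval -1.34 to -0.09, adjusted p = 0.0899, edgeR), with means of 0.494 ± 0.239 RPM in 9 LSD-treated rats and 0.814 ± 0.313 RPM in 7 controls.

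*Ppp1r1b*, with 1187 to 6288 reads per rat, was the most deeply sequenced of the 6 genes. LSD-treated rats had 100.2, 118 and 228 RPM (lowest, median and highest) and controls 109.9, 145 and 293 RPM, and 1 of 10 LSD-treated rats was above the median of the controls. The means were 129 ± 36.7 RPM (SD, n = 10) and 175 ± 73.7 RPM (SD, n = 10). The log2 fold change of -0.45 (standard error 0.19, 95% interval -0.84 to -0.05) had an adjusted p of 0.113 (edgeR). In the 16 other libraries the SDs were 12.2 and 16.9 RPM around means of 118 and 131 RPM, and the log2 fold change was -0.15 (95% interval -0.31 to 0.01, adjusted p = 0.164, edgeR). Leaving out LSD 9 alone gave -0.58 (adjusted p = 0.0354, edgeR).

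**Figure D2:**
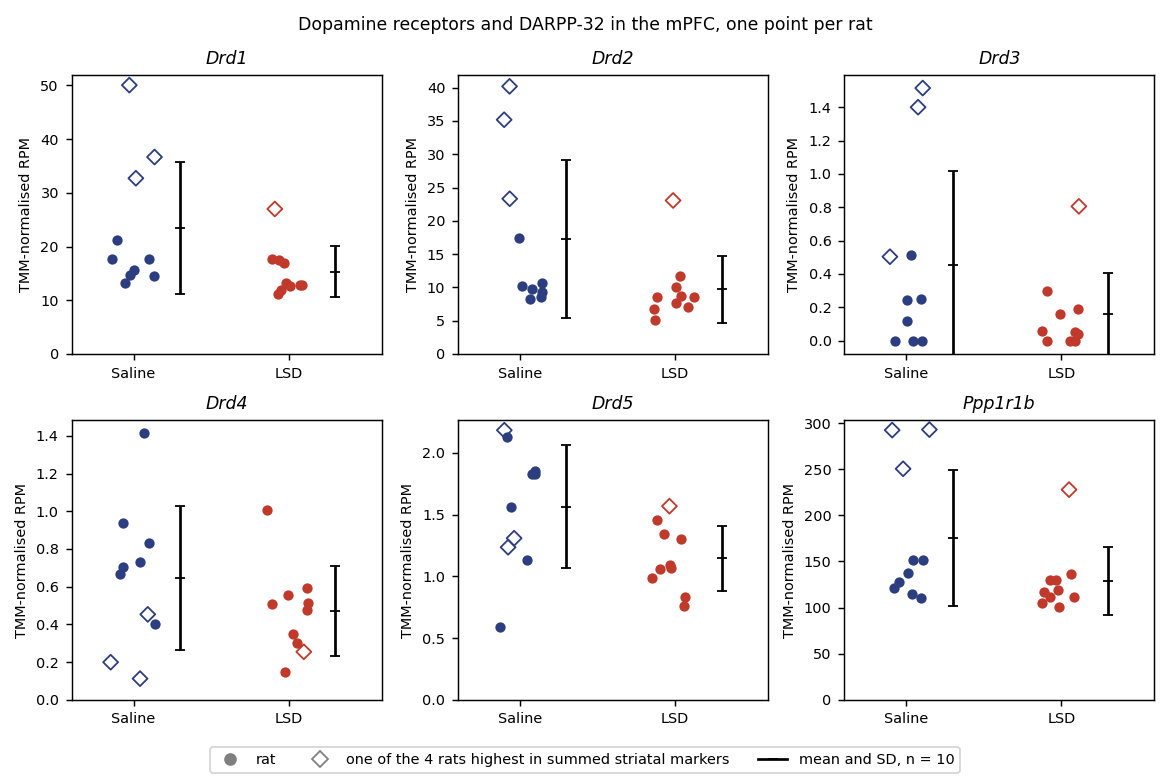
TMM-normalised RPM of each gene in each rat (y axis, linear), with 1 point per rat, diamonds for the 4 libraries highest in striatal markers and bars for the mean and SD of 10 rats. The diamonds are the 4 highest points in *Drd1*, *Drd2* and *Ppp1r1b*, and lie in the lower part of the *Drd4* panel.

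The 4 libraries had the 4 highest levels of 3 of the 6 genes. *Drd1* was 27.0 to 50.1 RPM in them and 11.1 to 21.2 RPM in the other 16, *Drd2* was 23.1 to 40.2 RPM against 5.09 to 17.5 RPM, and *Ppp1r1b* was 228 to 293 RPM against 100.2 to 152 RPM. Removing these libraries left 0 of the 5 genes past the filter called by edgeR, which called 20.9% of all genes. DESeq2 also called 0, but it gave no adjusted p for *Drd4* (log2 fold change -0.73), which was therefore not evaluated. At an unadjusted p under 0.05 in edgeR, 3 of the 5, *Drd2*, *Drd4* and *Drd5*, were lower, as were 17.7% of all genes. With the log2 of the summed striatal markers as a covariate over all 20 rats, chosen after the data were seen, log2 fold changes were -0.09 for *Drd1* (95% interval -0.27 to 0.10), -0.11 for *Drd2* (-0.35 to 0.12), -0.03 for *Drd3* (-1.21 to 1.14) and -0.02 for *Ppp1r1b* (-0.16 to 0.11). In the same fit *Drd4* stood at -0.79 (-1.41 to -0.18, adjusted p = 0.0678) and *Drd5* at -0.34 (-0.75 to 0.08, adjusted p = 0.252, edgeR). The summed markers had medians of 259 RPM in LSD-treated rats and 274 RPM in controls. *Drd1*, *Drd2*, *Drd3* and *Ppp1r1b* moved towards 0 by over 1.5 times in both of these fits, and *Drd4* moved away from 0 in both. *Drd5* moved by less than 1.5 times, away from 0 without the 4 libraries and towards 0 with the covariate.

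**Figure D3:**
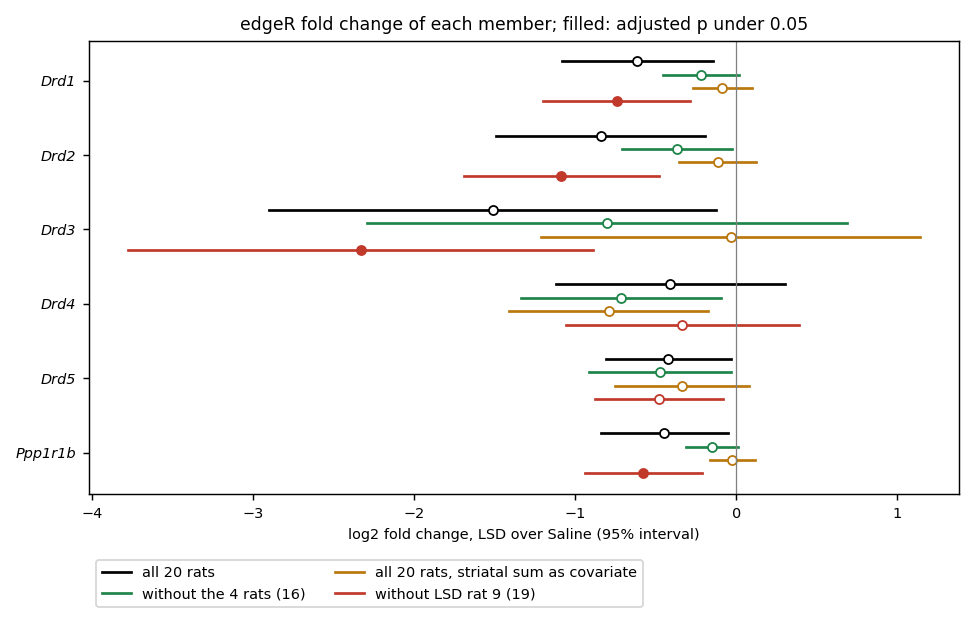
Log2 fold change of each gene, LSD over Saline, with its 95% interval from edgeR (x axis), in all 20 rats, without the 4 libraries, with summed striatal markers as a covariate and without LSD 9 alone. Filled points have an adjusted p under 0.05, and the only ones are *Drd1*, *Drd2*, *Drd3* and *Ppp1r1b* without LSD 9, while all points lie below 0.

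Relations between the genes were examined within the 16 other rats, since the 4 libraries form a separate cluster too small for a coefficient of its own. Values were log2(RPM + 1), centred in each group, and 15 relations were tested by 100000 permutations within groups, two-sided. *Drd1* and *Ppp1r1b* rose together (Pearson's r = 0.72, permutation p = 0.00294, adjusted p = 0.0275, Spearman's rho = 0.78, adjusted p = 0.0150), with r = 0.76 in 9 LSD-treated rats, 0.69 in 7 controls and 0.62 without the 2 rats farthest from the median of *Drd1*. *Drd1* and *Drd2* had r = 0.64 (permutation p = 0.00937, adjusted p = 0.0351) but rho = 0.47 (adjusted p = 0.178), and r = 0.74 without the 2 farthest rats. With scaling by total counts, this relation did not pass the threshold (r = 0.61, adjusted p = 0.0538, permutation test). Against the summed striatal markers, r was 0.66 for *Drd1* (permutation p = 0.00621, adjusted p = 0.0311) and 0.77 for *Drd2* (permutation p = 0.00366, adjusted p = 0.0275), with rho of 0.57 and 0.64 (adjusted p = 0.102 and 0.0835, permutation tests) and r of 0.56 and 0.54 without the 2 farthest rats. For *Ppp1r1b* against the striatal sum r was 0.53 and for *Drd2* against *Ppp1r1b* it was 0.53 (adjusted p = 0.101 for both, permutation test), the latter falling to 0.18 without the 2 farthest rats. The 9 relations that involve *Drd4* or *Drd5* had r between -0.38 and 0.44, and none passed the threshold (adjusted p from 0.216 to 0.997, permutation test). Within the groups some of them lay apart, with r of 0.86 in LSD-treated rats and 0.19 in controls for *Drd1* with *Drd5*, and of 0.68 and 0.21 for *Drd5* with the striatal sum, and the difference between groups was not tested. Both values of a relation come from the same library and share its normalisation.

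**Figure D4:**
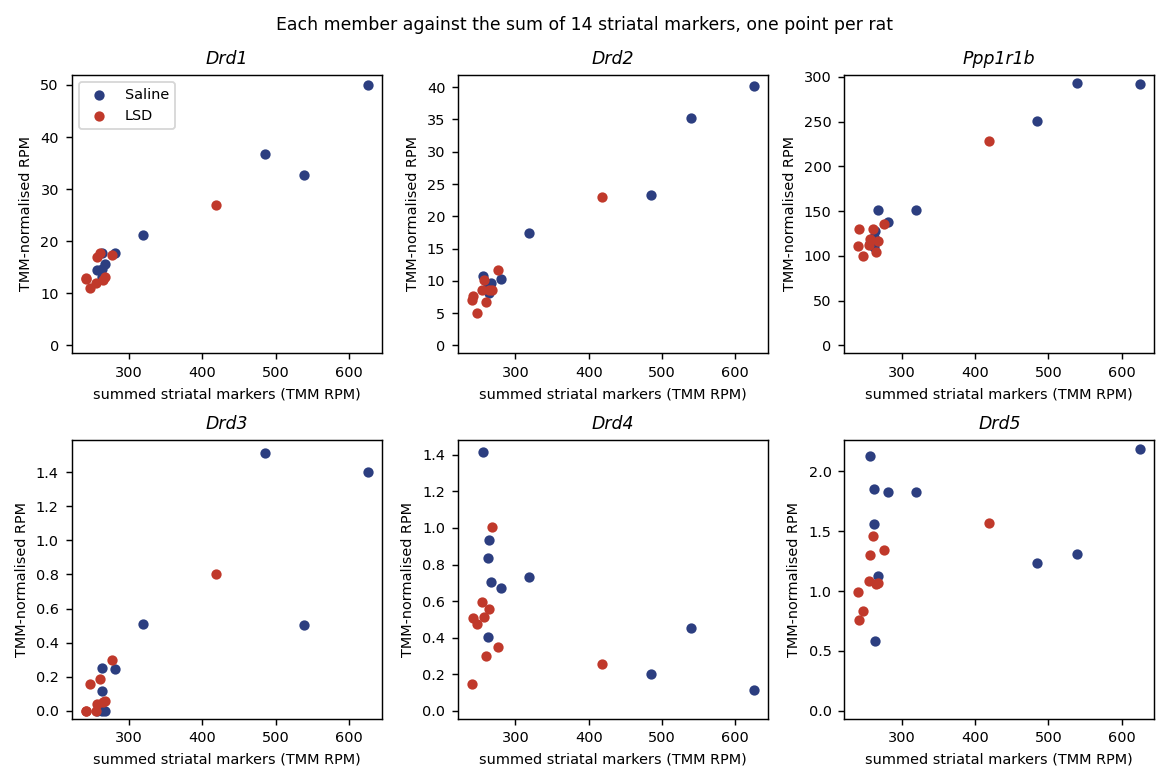
TMM-normalised RPM of each gene (y axis) against the sum of 14 striatal markers in TMM-normalised RPM (x axis), 1 point per rat. The 4 libraries above 400 RPM on the x axis are set apart from the other 16, and they have the highest *Drd1*, *Drd2* and *Ppp1r1b*.

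The number of *Drd1* reads per *Drd2* read was 1.21 to 2.64 in the 16 other libraries (median 1.65) and 0.930 to 1.57 in the 4 libraries (median 1.21). It had medians of 1.61 in LSD-treated rats and 1.56 in controls. The number of *Ppp1r1b* reads per *Drd1* read was more even, from 5.85 to 10.2 over all rats.

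Among 16604 other genes, those most like each member were named by Pearson's r of log2(RPM + 1) centred in each group over all 20 rats, as a description. For *Drd1* they were *Rarb* (r = 0.95), a retinoic acid receptor gene, *Ppp1r1b* (0.94) and *Rgs9* (0.93), a striatal regulator of G protein signalling. For *Drd2* they were *Gpr6* (0.96), an orphan receptor of indirect pathway neurons, *Rgs9* (0.95) and *Adora2a* (0.94), and for *Ppp1r1b* they were *Adora2a* (0.96), *Rgs9* (0.95) and *Drd1* (0.94). Over the 16 rats without the 4 libraries, these coefficients were between 0.49 and 0.74. The genes most like *Drd4* were *Rnf135*, *Wnt4* and *Timp2* (r = 0.91, 0.85 and 0.85, and 0.82, 0.72 and 0.79 over the 16), and those most like *Drd5* were *RGD1304728*, *Npff* and *Hnrnpu* (0.82, 0.77 and 0.74, and 0.78, 0.82 and 0.73 over the 16). None of these 6 genes is among the striatal markers.

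All 11 striatal markers past the filter had a negative log2 fold change, with a median of -0.48 against 0.00 for all genes tested, and without the 4 libraries the median was -0.18. Only *Gpr6* passed the threshold over all rats (-1.24, adjusted p = 0.0394, edgeR), and it also did so without the 4 libraries (-0.70, adjusted p = 0.0200, edgeR). *Adora2a* stood at -1.06 over all rats (adjusted p = 0.0672) and at -0.50 without the 4 libraries (adjusted p = 0.0181, edgeR). The values of *Syndig1l* were -0.98 and -0.39, of *Rgs9* -0.80 and -0.24, of *Rarb* -0.53 and -0.18, of *Penk*, the enkephalin precursor, -0.48 and -0.08, and of *Rxrg* -0.37 and -0.20, over all rats and without the 4 libraries. *Tac1* and *Pdyn*, precursors of substance P and dynorphin, turned from -0.39 to 0.26 and from -0.24 to 0.16, and *Pde10a* from -0.02 to 0.08. *Six3*, *Isl1* and *Ido1* did not pass the filter. None of *Syndig1l*, *Rgs9*, *Rarb*, *Penk*, *Rxrg*, *Tac1*, *Pdyn* and *Pde10a* was called in either fit.

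Of the transducers and regulators around the receptors, 73 were listed and all were tested. In LSD-treated rats 15 were lower (20.5% of the list, against 8.54% of all genes) and 6 were higher (8.22%, against 6.49%), and the median log2 fold change of the list was -0.03 against 0.00 for all genes. Without the 4 libraries 13 were lower and 13 higher, with 10.4% and 10.5% of all genes called. Among G proteins, the genes of the alpha subunits *Gnas* (Gs, -0.21, adjusted p = 0.0111), *Gnal* (Golf, -0.45, adjusted p = 0.0286) and *Gnai2* (-0.24, adjusted p = 0.00755) and of the gamma subunit *Gng3* (-0.35, adjusted p = 0.00407, edgeR) were lower, and *Gnai1* was higher (0.19, adjusted p = 0.0335, edgeR). *Gnas* had 868 ± 45.9 RPM in LSD-treated rats and 1003 ± 81.5 RPM in controls (SD, n = 10), and *Gnal* had 61.5 ± 11.1 and 83.9 ± 22.7 RPM (SD, n = 10). Without the 4 libraries *Gnas* was still called (-0.21, adjusted p = 0.0114) whereas *Gnal*, the partner of the D1 receptor in the striatum, was not (-0.26, adjusted p = 0.137, edgeR). *Gng7*, the gamma subunit that pairs with Golf, stood at -0.46 (adjusted p = 0.0721), or -0.15 without the 4 libraries (adjusted p = 0.185, edgeR).

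Along the cAMP arm, *Adcy5*, the main striatal adenylyl cyclase, was lower in LSD-treated rats (297 ± 26.2 against 363 ± 76.0 RPM, SD, n = 10, log2 fold change -0.29, adjusted p = 0.0358) and stayed so without the 4 libraries (-0.25, adjusted p = 0.0296, edgeR). The phosphodiesterase genes *Pde1b* and *Pde4d* differed in opposite directions (-0.22, adjusted p = 0.0271, and 0.30, adjusted p = 0.0104, edgeR), and *Pde1b* lost its call without the 4 libraries (-0.12, adjusted p = 0.0729) while *Pde4d* kept it (0.30, adjusted p = 0.0129, edgeR). *Pde10a*, a striatal phosphodiesterase gene, stood at -0.02 (adjusted p = 0.940, edgeR). Of 6 protein kinase A genes, 2 were lower, *Prkaca* and *Prkar1b*, and 1 was higher, *Prkacb*. Without the 4 libraries 1 was lower and 2 were higher, since *Prkaca* lost its call (-0.14, adjusted p = 0.0466 over all rats, and 0.0643 without them) and *Prkar2b* gained one (0.22, adjusted p = 0.00738, edgeR). Beside this and the other class counts, 8.54% of all genes were lower and 6.49% higher over all rats. Without the 4 libraries these shares were 10.4% and 10.5%. With offsets for gene span over all rats, *Prkar1b* kept its call (adjusted p = 0.0144). *Prkaca* and *Prkacb* did not (adjusted p = 0.0622 and 0.460, edgeR). Of 19 genes for DARPP-32's phosphatases and kinases and its relatives, 3 were lower and 1 higher: *Cdk5*, which phosphorylates DARPP-32, was lower (-0.21, adjusted p = 0.0126, or -0.19 and adjusted p = 0.0204 without the 4 libraries), and *Ppp3cb*, a catalytic subunit of calcineurin, the phosphatase that reverses protein kinase A's action on it, was higher (0.22, adjusted p = 0.0269, or 0.28 and adjusted p = 0.00555, all edgeR). *Csnk2b*, the regulatory subunit of casein kinase 2, was lower over all rats (-0.15, adjusted p = 0.0418) but not without the 4 libraries (-0.10, adjusted p = 0.0943, edgeR), where 2 genes of this class were lower and 2 higher. *Ppp3ca*, the other catalytic calcineurin gene tested (0.09, adjusted p = 0.201), and the DARPP-32 relatives *Ppp1r1a* (-0.07, adjusted p = 0.627) and *Arpp21* (-0.06, adjusted p = 0.541, edgeR) were not called.

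Of 10 genes listed as receptor-interacting proteins and GIRK channels, *Caly*, encoding calcyon, was lower (222 ± 19.3 against 281 ± 50.8 RPM, SD, n = 10, -0.34, adjusted p = 0.0128, edgeR) and *Kcnj3* was higher (0.25, adjusted p = 0.0323, edgeR), and both were called without the 4 libraries (-0.35, adjusted p = 0.0114, and 0.18, adjusted p = 0.0180, edgeR). *Gipc1*, encoding a protein that binds the D2 receptor, was also lower over all rats (-0.19, adjusted p = 0.0190), but not without the 4 libraries (-0.14, adjusted p = 0.0595, edgeR). Among 10 arrestin, GRK and RGS genes only *Grk6* was called (-0.16, adjusted p = 0.0274, edgeR).

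**Figure D5:**
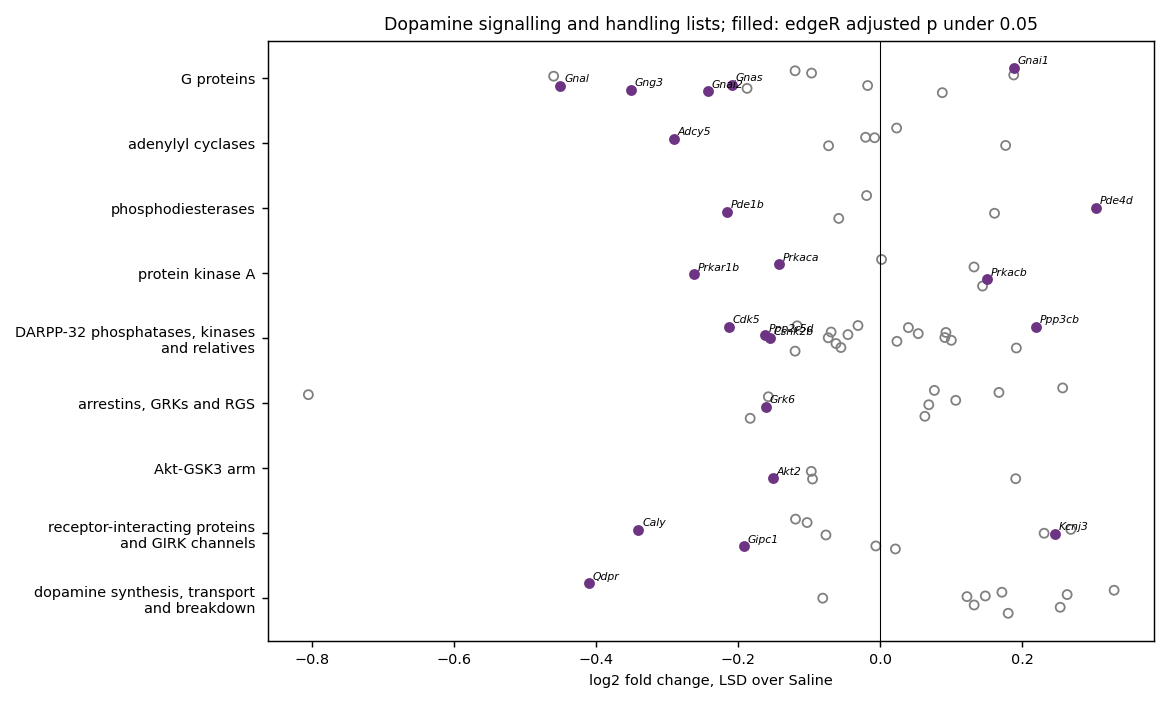
Log2 fold change, LSD over Saline, in all 20 rats (x axis) of 72 signalling genes and 10 genes of dopamine synthesis, transport and breakdown, by class (y axis, with points spread vertically for display). Filled, named points have an adjusted p under 0.05, with 15 signalling genes below 0 and 5 above.

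The genes of dopamine synthesis, transport and breakdown had few calls, and some of them were measured at low levels. Of 12 genes, 11 passed the filter (*Slc6a2* did not). Their log2 fold changes had a median of 0.15, and only *Qdpr*, which regenerates the cofactor of tyrosine hydroxylase, was called (169 ± 28.1 against 225 ± 61.7 RPM, SD, n = 10, -0.41, adjusted p = 0.0386, or -0.22 and adjusted p = 0.156 without the 4 libraries, edgeR). The oligodendrocyte marker sum, which was also highest in the 4 libraries, had medians of 3268 RPM in LSD-treated rats and 4022 RPM in controls. The part of this difference in the *Qdpr* value was not tested. *Th*, tyrosine hydroxylase itself, had 5.74 ± 3.13 and 4.71 ± 3.10 RPM (SD, n = 10, 0.33, adjusted p = 0.575, edgeR). The values for the transporter genes *Slc6a3* and *Slc18a2* were 0.25 and 0.17, for *Ddc*, *Gch1* and *Pts* they were 0.15, 0.26 and -0.08, for *Dbh* 0.12, and for the degrading enzymes *Maoa* and *Maob* 0.18 and 0.13, with adjusted p-values from 0.0813 to 0.834 (edgeR). Of these, *Maoa* was called without the 4 libraries (0.23, adjusted p = 0.0231, edgeR).

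Markers of the cortical cell types in which these receptors are known differed in a few genes. Of all genes tested, 8.54% were lower and 6.49% higher, or 10.4% and 10.5% without the 4 libraries. Of 9 layer 6 markers, *Nxph4* was lower (-0.67, adjusted p = 0.0175), of 5 layer 5 markers *Etv1* was higher (0.26, adjusted p = 0.0157), and of 5 upper layer markers *Rorb* was higher (0.24, adjusted p = 0.0155, edgeR). Of 9 interneuron markers past the filter, *Gad2* (0.23, adjusted p = 0.0368) and *Vip* (0.27, adjusted p = 0.0486) were higher and *Slc32a1* (-0.34, adjusted p = 0.0180) and *Sst* (-0.28, adjusted p = 0.0222, edgeR) lower. With offsets for gene span, *Nxph4* and *Vip* kept their calls (adjusted p = 0.0355 and 0.0246, edgeR). *Etv1*, *Rorb*, *Gad2*, *Slc32a1* and *Sst* lost theirs (adjusted p from 0.0571 to 0.171, edgeR). No marker of cortical excitatory neurons, astrocytes, oligodendrocytes, microglia or endothelial cells was called over all rats, with 5 tested in each list. Without the 4 libraries *Cldn5* of the endothelial list was lower (-0.22, adjusted p = 0.0158), *P2ry12* of the microglial list was higher (0.29, adjusted p = 0.00928) and *Ctgf* of the layer 6 list was lower (-0.34, adjusted p = 0.0368), while *Sst* was no longer called (-0.19, adjusted p = 0.0960, edgeR). Over all rats the 5 oligodendrocyte markers had log2 fold changes from -0.48 to -0.22. The part of these markers in the values of the 6 genes was not tested.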

How the data were processed

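RNA of 20 rats, 10 per group, was sequenced with 1 library per rat. TrimGalore was used by the authors for trimming, HISAT2 for alignment (rn6 build) and HTSeq-count for counting, and the deposited values are raw read counts without normalisation. Versions, gene annotation and strand setting are not given in the sources used here. The matrix holds 31038 gene symbols and 5 unnamed entries (25.5% to 29.0% of all counts per library), which were left out.

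Groups and replicate numbers were taken from the sample titles. A gene needed 5 reads in 10 or more samples. TMM-normalised counts entered the quasi-likelihood test of edgeR 4.0.16 (R 4.3.3), and p-values were adjusted over 16605 genes (Benjamini-Hochberg, threshold 0.05). Without the 4 libraries, the same filter left 16235 genes of 16 libraries. Standard errors and intervals were derived from the F statistic. *Drd3* was fitted without the filter. Precision is set by the spread between rats. The labels number the samples but name no animals, so p-values measure the spread between these samples.

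The 6 genes and all gene lists were chosen with earlier results of these data known. All 153 list symbols were matched, directly or by a RefSeq synonym. The genes named in the text are the 6 members, dopamine handling genes and striatal markers, 9 fixed signalling genes, up to 5 called signalling genes in each direction, called genes of the other marker lists, and the 3 genes most like each member. *Prkaca*, *Prkacb*, *Prkar1b*, *Grk6*, *Prkar2b*, *Csnk2b*, *Gipc1*, *Ctgf*, *Cldn5* and *P2ry12* were added after their values were seen. Some genes of these lists are not reported here. The relations between members had been planned over all 20 rats and were restricted to 16 because the libraries fell into separate clusters. Alternatives were DESeq2 1.42.0, other filters and scalings, equal depth, the replicate number as a block, offsets for gene span (GRCr8 annotation, 85.9% of tested genes), and each rat left out. The steps were tested on simulated data. Permutations and sequence searches used Python 3.11.15 with numpy 2.4.6.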

Additional observations from a re-analysis of the deposited data

Results flagged for a closer look

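In each group of 10 rats, a library was singled out where its gap to the nearest of the others was too large a part of the group's range. This used Dixon's test at the 95% level, and 6 of 16 groups examined were singled out. For independent groups with a normal spread, chance gives about 1 of 20. These levels were not transformed, and the groups share the same rats, so that rate is not a measure of chance here. LSD 9 was the highest LSD library in 5 of them. Its *Drd1* level was 27.0 RPM, with 17.7 RPM in the next rat (gap 0.588 of the range). For *Drd2* it had 23.1 RPM and the next rat 11.7 RPM (gap 0.634), for *Drd3* 0.805 and 0.298 RPM (gap 0.630), and for *Ppp1r1b* 228 and 136 RPM (gap 0.720). Its summed striatal markers stood at 419 RPM against 277 RPM in the next rat (gap 0.800). In the controls 3 libraries had *Drd1*, *Drd2* and *Ppp1r1b* levels above that of LSD 9, and none was singled out. The test takes only the gap between the extreme library and the next, so several high libraries can hide one another. For *Drd4* the highest LSD library was LSD 6, with 1.01 RPM from 18 reads against 0.593 RPM in the next rat (gap 0.482).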

How the results depend on the processing

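All 6 genes had a negative log2 fold change in each of 196 refits of a member under the alternatives run, 9 of which passed the threshold. These refits are not independent, since they use the same rats and most leave out only 1 of them. The values nearest to 0 were -0.02 for *Ppp1r1b* and -0.03 for *Drd3*. DESeq2 gave no adjusted p for *Drd3*, nor for *Drd4* without the 4 libraries. Limits are the low depth of *Drd3* and *Drd4* and the spread set by the 4 libraries. The replicate numbers are shared by the groups, and the labels do not say whether they pair the rats. Deviations of same-numbered rats correlated with r from -0.259 to 0.467, over 0.1 in 6 of 10 pairs. The mean r was 0.145 for same-numbered rats and -0.0157 for rats of different number. Only 1 of 10 LSD-treated rats correlated best with its own number. Whether the numbers carry a batch was not tested. With the replicate number as a block, *Drd1* (log2 fold change -0.52, adjusted p = 0.0427) and *Drd2* (-0.73, adjusted p = 0.0166, edgeR) passed the threshold, 6 striatal markers were called, and 1355 genes were higher and 1605 lower. With the block and span offsets, *Drd2* passed (-0.80, adjusted p = 0.0144, edgeR), *Drd1* did not (-0.43, adjusted p = 0.112, edgeR), 5 striatal and 0 handling genes were called, and 807 genes were higher and 1238 lower.

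Without a filter on low counts 836 genes were lower and 960 higher, and 12 signalling, 0 handling and 0 striatal genes were called, where the report has 1418, 21, 1 and 1. Scaling by total counts gave 858 lower genes and 0 handling and 0 striatal genes, thinning all libraries to 11098076 reads gave 0 striatal genes, and DESeq2 called 2. Span offsets without the block gave 581 higher genes (1077 in the report), 13 signalling, 0 handling and 0 striatal genes. With the striatal sum as covariate 0 handling and 0 striatal genes were called. Without the 4 libraries, 1701 genes were higher, or 1931 with DESeq2, and 2 striatal genes were called, also with DESeq2 or span offsets, the latter with 0 handling genes. Of the 2495 genes called over all rats, 2162 were among the 3390 called without the 4 libraries. The cause of these changes was not tested.

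With each rat left out in turn, log2 fold changes ranged from -0.74 to -0.42 for *Drd1*, -1.09 to -0.61 for *Drd2*, -2.33 to -1.04 for *Drd3*, -0.58 to -0.20 for *Drd4*, -0.52 to -0.35 for *Drd5* and -0.58 to -0.33 for *Ppp1r1b*. The counts ranged from 663 to 1669 higher and 957 to 1906 lower genes, 11 to 30 signalling, 0 to 2 handling and 0 to 5 striatal genes. Relations near 0 changed sign: *Drd2* with *Drd4* (-0.0046), *Drd4* with *Drd5* (0.10) and *Drd4* with the striatal sum (-0.26) within Saline alone, and *Drd5* with *Ppp1r1b* without the 2 farthest rats (0.087) and within LSD alone (0.46).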
